A study of Homo sapiens with 12 samples.

Results

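A group of 10 genes that govern passage through the G1 phase of the cell cycle was followed: the D-type cyclin genes CCND1, CCND2 and CCND3, the Cip/Kip inhibitor genes CDKN1A, CDKN1B and CDKN1C, and the INK4 inhibitor genes CDKN2A, CDKN2B, CDKN2C and CDKN2D. They were chosen by name as 2 complete gene families of inhibitors and their cyclin counterpart, and are 10 of the 28278 gene symbols listed on the primary chromosomes. Each was represented by its transcript model with the largest fragment sum across libraries. Of the 10, 9 had enough fragments to be tested, and CCND2 did not.

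D-type cyclins bind and activate the kinases CDK4 and CDK6, which phosphorylate the retinoblastoma protein and so free E2F transcription factors to drive entry into S phase. INK4 proteins bind those kinases and keep the cyclins off. Cip/Kip proteins bind cyclin and kinase complexes, block CDK2 above all, and can also help D-type cyclins assemble with their kinases.

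The study knocked down LARP4A or LARP4B, related RNA-binding proteins, in PC3, a human prostate carcinoma line, and MG63, a human osteosarcoma line. Each line was lipid-transfected with siRNA at 10 nM for 72 h, and both lines are labelled wild type (WT). The 6 groups, each with 2 libraries of poly(A) RNA, were PC3 with siControl (a non-targeting siRNA), siLARP4A or siLARP4B, and MG63 with siControl, siLARP4A or siLARP4B. The design text calls the 2 libraries of a group biological replicates. The p-values rest on the spread within such pairs, estimated jointly over the 6 groups and borrowed largely from other genes. How many siRNA sequences were used per target is not given in the sources used here. The lines were grown in different media, so line and medium cannot be told apart. In bulk samples fewer cells making a transcript and less transcript per cell cannot be told apart either.

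The libraries held 16950119 to 24864977 fragments, the most in PC3 siLARP4A replicate 1. Replicates correlated across genes at r = 0.994 to 0.995, and the spread within pairs, above counting error throughout, was widest for MG63 siLARP4B and PC3 siLARP4A. LARP4, the gene of LARP4A, fell with siLARP4A from 19.2 to 2.41 FPKM (fragments per kilobase of transcript, scaled to the library total) in PC3 and from 8.34 to 2.15 in MG63. LARP4B fell with siLARP4B from 7.10 to 1.31 in PC3 and from 6.71 to 2.05 in MG63. LARP4 was higher with siLARP4B than with siControl in MG63 (log2 0.43, edgeR adjusted p 8.4e-06), so both transcripts differed from siControl in that group. The epithelial genes KRT8, KRT18, KRT19, EPCAM and CDH1 were higher in every PC3 library than in any MG63 library, and COL1A1, COL1A2 and SPARC the other way round. The prostate luminal marker KLK3 was at or near 0 in PC3, the bone factors RUNX2 and SP7 were below 0.7 FPKM in MG63, and TWIST1 was higher in PC3 than in MG63. Among markers of blood and endothelium CD3E was at 0 and VWF below 0.05 FPKM in every library, while the macrophage gene CD68 was at 11.8 to 30.6 FPKM in both lines.

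Promoter sequence from RefSeq (GRCh38.p14) is shown for 3 inhibitors that changed with a siRNA and had at least 347 fragments in every library, CDKN1A, CDKN1B and CDKN2C, and for the 2 inhibitors on chromosome 9 found in PC3 but not in MG63. Each window is the 250 bases before the transcription start, 5′ to 3′ on the gene's strand. Capitals mark matches, on either strand, to the GC box GGGCGG, the word bound by SP1-type factors, and to the CCAAT box. The table held entries for 7 of the 10 genes.
CDKN1A, chr6:36678464-36678713, plus strand: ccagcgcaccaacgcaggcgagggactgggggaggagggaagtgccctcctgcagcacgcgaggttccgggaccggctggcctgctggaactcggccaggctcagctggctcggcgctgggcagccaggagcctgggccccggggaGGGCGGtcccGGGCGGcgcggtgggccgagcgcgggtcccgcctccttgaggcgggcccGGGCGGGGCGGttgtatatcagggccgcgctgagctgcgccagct
CDKN1B, chr12:12717118-12717367, plus strand: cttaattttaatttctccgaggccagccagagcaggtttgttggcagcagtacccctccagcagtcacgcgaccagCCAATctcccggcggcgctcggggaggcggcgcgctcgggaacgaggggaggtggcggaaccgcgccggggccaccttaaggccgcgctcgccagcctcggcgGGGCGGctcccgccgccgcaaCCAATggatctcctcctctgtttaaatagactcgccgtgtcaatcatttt
CDKN2C, chr1:50968456-50968705, plus strand: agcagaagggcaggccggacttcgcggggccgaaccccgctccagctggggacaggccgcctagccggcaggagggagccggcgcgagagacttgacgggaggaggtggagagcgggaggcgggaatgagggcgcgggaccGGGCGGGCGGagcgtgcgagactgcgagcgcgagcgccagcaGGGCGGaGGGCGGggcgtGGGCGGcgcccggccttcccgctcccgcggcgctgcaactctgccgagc
CDKN2A, chr9:21974858-21975107, minus strand, before the downstream first exon: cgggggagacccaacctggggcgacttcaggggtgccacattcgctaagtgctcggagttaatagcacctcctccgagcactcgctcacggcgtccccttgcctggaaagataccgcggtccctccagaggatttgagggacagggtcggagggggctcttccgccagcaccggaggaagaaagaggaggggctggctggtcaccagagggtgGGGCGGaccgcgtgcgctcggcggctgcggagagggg
CDKN2B, chr9:22009306-22009555, minus strand: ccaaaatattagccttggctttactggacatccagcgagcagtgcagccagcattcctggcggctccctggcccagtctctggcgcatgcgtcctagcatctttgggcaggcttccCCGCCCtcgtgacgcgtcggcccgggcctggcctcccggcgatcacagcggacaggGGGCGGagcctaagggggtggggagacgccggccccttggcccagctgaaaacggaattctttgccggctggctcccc
The table has 3 windows for CDKN2C and 2 for CDKN2A, 1 per start. The one shown is the window that ends nearest the start of the CDKN2C model used, and for CDKN2A the window of p16. Neither CDKN2A window ends at the start of the CDKN2A model used, 21994392. With overlapping matches counted, the CDKN1A window held 4 GC boxes, CDKN2C 5, CDKN2B 2, and CDKN1B and CDKN2A 1 each; CDKN1B also held 2 CCAAT boxes. The windows not shown held 0 and 1 GC boxes for CDKN2C and 0 for CDKN2A. A GC box stood in 42.6% of 35116 promoter windows of this length and a CCAAT box in 32.0%. None of the 5 windows held TATAAA (10.7% of all windows) or the E2F words TTTGGCGC, TTTCGCGC and TTTCCCGC (2.32%). GC content was 64.4% to 77.2% in the 5 windows. These matches are descriptions of the letters.

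With siControl, the order of transcript levels per length in PC3 was CCND1 (162 ± 2.20 FPKM, SD, n = 2), CDKN2A (148 ± 10.3), CDKN2C (53.5 ± 0.328), CDKN2B (17.3 ± 0.0922), CCND3 (16.0 ± 0.0879), CDKN1B (15.6 ± 1.42), CDKN1A (8.79 ± 0.330), CDKN2D (6.62 ± 0.0206), CDKN1C (0.264 ± 0.0881) and CCND2 (0.0328 ± 0.0222). CCND3 and CDKN1B did not differ beyond their spread. In MG63 it was CCND1 (107 ± 1.82), CDKN2C (57.7 ± 0.751), CDKN1B (22.0 ± 0.791), CDKN1A (21.7 ± 1.40), CCND3 (16.2 ± 0.373) and CDKN2D (11.2 ± 0.0794). CDKN1B and CDKN1A did not differ beyond their spread there, and the remaining 4 genes were below 0.1 FPKM.

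**Figure D1:**
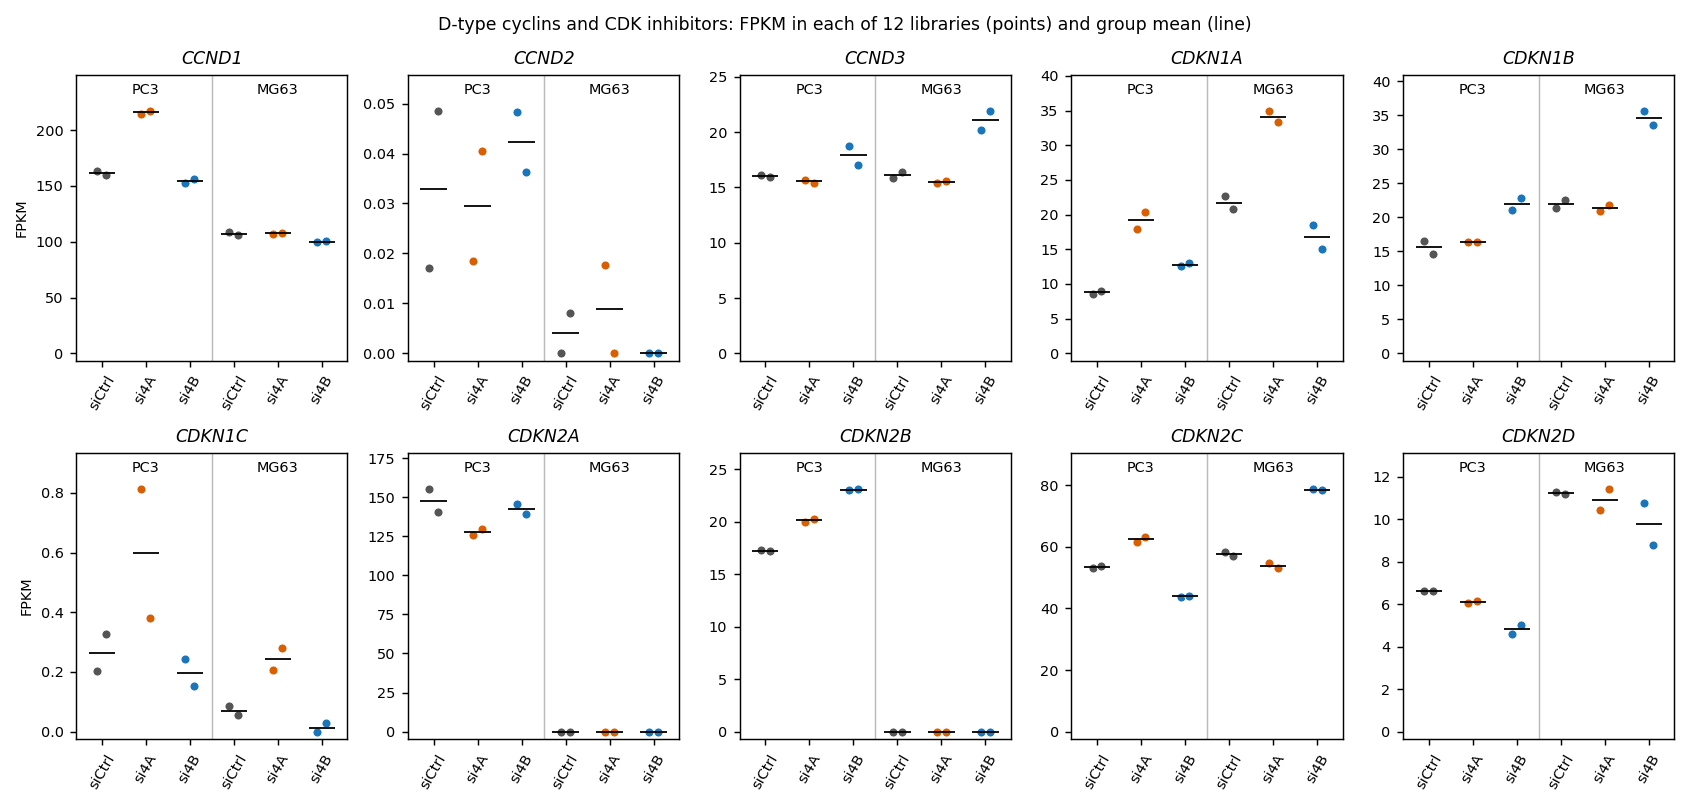
FPKM (linear axes, a scale per gene) of each of the 10 genes, with 1 point per library and a line at the group mean, for siControl (siCtrl), siLARP4A (si4A) and siLARP4B (si4B) in PC3 and MG63. CDKN1A was highest with siLARP4A in both lines, CDKN1B with siLARP4B in both lines, CDKN2C moved in opposite orders in the lines, and CDKN2A and CDKN2B lay at or near 0 in MG63.

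Cyclin D1 was the D-type cyclin that responded to siLARP4A, and it did so in PC3. CCND1 (chromosome 11, 69641156 to 69654474, plus strand) encodes it, and the gene was at 163 and 160 FPKM in the PC3 siControl libraries, 215 and 217 with siLARP4A, and 153 and 156 with siLARP4B. Both siLARP4A libraries lay above all other PC3 libraries, and the siLARP4B libraries lay just below siControl. CCND1 rose 1.35-fold with siLARP4A (log2 0.44, SE 0.040, edgeR adjusted p 1.8e-08), and the siLARP4B difference missed the threshold (log2 -0.07, 95% interval -0.15 to 0.02, edgeR adjusted p 0.19). That last call turned with the setting: with no expression filter the value was -0.11 (edgeR adjusted p 0.0348), and when PC3 was fitted without MG63 it was -0.11 (edgeR adjusted p 0.0473).

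In MG63, CCND1 stood at 109 and 106 FPKM with siControl, 107 and 108 with siLARP4A, and 99.5 and 101 with siLARP4B. The siControl and siLARP4A values overlapped. The siLARP4A difference was log2 0.00 (95% interval -0.08 to 0.09, edgeR adjusted p 0.98) and the siLARP4B difference was -0.08 (95% interval -0.16 to 0.00, edgeR adjusted p 0.13; limma on log2(FPKM + 1) gave -0.10 with an adjusted p of 0.0352). The siLARP4A effect on CCND1 was larger in PC3 than in MG63 (log2 difference 0.43, SE 0.056, edgeR adjusted p 2.3e-05).

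Cyclin D3 followed siLARP4B in MG63. CCND3 (chromosome 6, 41934933 to 41941848, minus strand) had MG63 levels of 15.9 and 16.4 FPKM with siControl, 15.4 and 15.6 with siLARP4A, and 20.2 and 21.9 with siLARP4B. The siLARP4B libraries were above all others, and CCND3 rose 1.32-fold (log2 0.40, SE 0.067, edgeR adjusted p 7.3e-05). In PC3 the values were 16.1 and 16.0 with siControl, 15.7 and 15.4 with siLARP4A, and 18.8 and 17.0 with siLARP4B. The PC3 siLARP4B libraries were again the highest, but the difference missed the threshold (log2 0.16, 95% interval 0.01 to 0.30, edgeR adjusted p 0.067), while without siLARP4B replicate 2 it passed (0.22, edgeR adjusted p 0.0439) and limma gave an adjusted p of 0.0499. The siLARP4A difference missed it in both lines (log2 -0.02 in PC3, -0.06 in MG63).

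CCND3's siLARP4B effect in PC3 minus that in MG63 was log2 -0.24 (SE 0.096, edgeR adjusted p 0.067), which missed the threshold; it passed with DESeq2 size factors (-0.27, edgeR adjusted p 0.0401), with no filter (-0.31, 0.0228), with the deduplicated table of PC3 siControl replicate 2 (-0.30, 0.0208), and without PC3 siLARP4B replicate 1 (-0.32, 0.0408), MG63 siControl replicate 2 (-0.31, 0.0486) or MG63 siLARP4B replicate 1 (-0.35, 0.0131). CCND2 (chromosome 12, 4273762 to 4305352, plus strand), the remaining D-type cyclin gene, had 2 to 6 fragments in each PC3 library and 0 to 2 in each MG63 library. A count of 0 would allow up to 3 fragments, 0.0236 to 0.0265 FPKM in the MG63 libraries, so no fold is given for CCND2.

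CDKN1A, which encodes p21, a Cip/Kip inhibitor induced by DNA damage and other stresses, rose with siLARP4A in both lines. The gene spans 36678714 to 36687332 of chromosome 6, plus strand. In PC3 it was at 8.56 and 9.02 FPKM with siControl, 18.0 and 20.4 with siLARP4A, and 12.6 and 12.96 with siLARP4B. The 3 PC3 groups did not overlap, in the order siControl, siLARP4B, siLARP4A. CDKN1A rose 2.20-fold with siLARP4A (log2 1.14, SE 0.092, edgeR adjusted p 2.9e-09) and 1.45-fold with siLARP4B (log2 0.54, SE 0.098, edgeR adjusted p 0.00011).

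In MG63, CDKN1A was at 22.7 and 20.7 FPKM with siControl, 35.0 and 33.3 with siLARP4A, and 18.5 and 15.1 with siLARP4B. These groups did not overlap either, but here siLARP4B was the lowest. CDKN1A rose 1.57-fold with siLARP4A (log2 0.65, SE 0.079, edgeR adjusted p 1.8e-06) and fell to 78.4% of siControl with siLARP4B (log2 -0.35, SE 0.084, edgeR adjusted p 0.0023). That fall missed the threshold without MG63 siControl replicate 1 (-0.28, edgeR adjusted p 0.061) and without MG63 siLARP4B replicate 2 (-0.21, edgeR adjusted p 0.0843), the lower of the pair.

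The siLARP4B effect on CDKN1A differed between the lines (PC3 minus MG63, log2 0.89, SE 0.13, edgeR adjusted p 2.4e-05), and the 2 effects had opposite signs. The siLARP4A effect differed by 0.49 (SE 0.12, edgeR adjusted p 0.011), which lost its call with limma (0.41, adjusted p 0.0605) and without PC3 siControl replicate 1 (0.46, edgeR adjusted p 0.0564), MG63 siControl replicate 1 (0.37, 0.128) or MG63 siLARP4A replicate 2 (0.41, 0.0914).

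CDKN1B, which encodes p27, the Cip/Kip inhibitor held high in quiescent cells and removed by the ubiquitin system, rose with siLARP4B in both lines. The gene spans 12717368 to 12722369 of chromosome 12, plus strand. In PC3 it was at 16.6 and 14.6 FPKM with siControl, 16.4 and 16.4 with siLARP4A, and 21.1 and 22.8 with siLARP4B. In MG63 the siControl pair was at 21.4 and 22.5, the siLARP4A pair at 20.9 and 21.8, and the siLARP4B pair at 35.7 and 33.6. The siLARP4B libraries stood above all others of their line, and the siControl and siLARP4A libraries overlapped in both lines. CDKN1B rose 1.41-fold in PC3 (log2 0.49, SE 0.073, edgeR adjusted p 9.4e-06) and 1.60-fold in MG63 (log2 0.68, SE 0.068, edgeR adjusted p 8.4e-08). The difference between these effects missed the threshold (log2 -0.18, 95% interval -0.39 to 0.02, edgeR adjusted p 0.19). With siLARP4A the differences were 0.09 (95% interval -0.06 to 0.24) in PC3 and -0.04 (95% interval -0.19 to 0.11) in MG63, both short of the threshold.

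CDKN1C, which encodes p57 and is imprinted, was near the limit of detection. Its model (chromosome 11, 2883218 to 2885765, minus strand) had 7 and 12 fragments with PC3 siControl, 39 and 14 with siLARP4A, and 9 and 5 with siLARP4B. Replicate 1 of PC3 siLARP4A stood apart from all others. The siLARP4A rise in PC3 passed the threshold (log2 1.23, SE 0.43, edgeR adjusted p 0.03) but was 0.53 without that library (edgeR adjusted p 0.543), 0.95 without PC3 siControl replicate 1 (0.21) and 1.61 without PC3 siControl replicate 2 (0.054). The ratio of summed fragments was 2.36, with an interval of 1.37 to 4.21 that covers counting error only. With siLARP4B the PC3 difference was log2 -0.40 (edgeR adjusted p 0.61).

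In MG63, CDKN1C had 3 and 2 fragments with siControl, 7 and 10 with siLARP4A, and 0 and 1 with siLARP4B. A second copy of the gene on an alternate contig of the assembly held 9 further fragments in MG63 siControl replicate 1 and 0 to 4 in the other libraries. On the chromosome 11 model the ratio of siLARP4A to siControl in MG63 was 3.51 (counting interval 1.24 to 12.2), and with the second copy added it was 1.62 (0.793 to 3.43). The edgeR difference on the chromosome 11 model missed the threshold (log2 1.76, SE 0.74, edgeR adjusted p 0.087). The counting interval left out a ratio of 1 on that model and held it once the second copy was added, a choice made after seeing the data. Whether CDKN1C differed between MG63 siControl and siLARP4A therefore stayed unresolved at these counts.

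CDKN2A and CDKN2B, neighbours on the short arm of chromosome 9, separated the lines. CDKN2A (21967752 to 21994392, minus strand) encodes p16 and, from another first exon and reading frame, ARF, which acts on MDM2. In PC3 it was at 155 and 140 FPKM with siControl, 126 and 130 with siLARP4A, and 145 and 140 with siLARP4B, and in MG63 it had 1 fragment in 1 of the 6 libraries. CDKN2B (22002903 to 22009313, minus strand), which encodes p15, was at 17.3 and 17.2 FPKM in PC3 with siControl, 20.01 and 20.3 with siLARP4A, and 23.03 and 23.1 with siLARP4B, and had 0 fragments in all 6 MG63 libraries.

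Against a floor of 3 fragments per MG63 siControl library, CDKN2A was at least 963-fold and CDKN2B at least 426-fold higher in PC3 with siControl on the deposited FPKM. These bounds lack the scaling between libraries that the edgeR folds carry, which would make them somewhat lower. In PC3 the 3 groups of CDKN2B did not overlap. CDKN2B rose with siLARP4A (1.18-fold, log2 0.24, SE 0.061, edgeR adjusted p 0.0039) and with siLARP4B (1.33-fold, log2 0.41, SE 0.061, edgeR adjusted p 1.5e-05). CDKN2A fell with siLARP4A to 87.4% of siControl (log2 -0.19, SE 0.061, edgeR adjusted p 0.017), a call lost without PC3 siControl replicate 1 (-0.11, edgeR adjusted p 0.289) and without PC3 siLARP4A replicate 1 (-0.17, 0.0551). With siLARP4B its difference was -0.06 (edgeR adjusted p 0.49).

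The tables held 5 CDKN2A models, which share exons and fragments. In PC3 siControl, the model used here, which starts at 21994392, was the highest, at 148 ± 10.3 FPKM (SD, n = 2). The model that starts at 21995324, the first exon of ARF, was at 93.6 ± 0.0526. The 3 models that start at 21974857, the first exon of p16, were at 91.8 ± 5.91, 97.6 ± 6.42 and 117 ± 7.68. All 5 were at or below 1 fragment per library in MG63. On the opposite strand, the antisense gene CDKN2B-AS1 overlaps CDKN2B and had 293 fragments over the 6 PC3 libraries, against 1240 to 1982 for CDKN2B in each; as the handling of strand is not given in the sources used here, a share of these fragments cannot be assigned.

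The genes around CDKN2A fell in 2 sets in MG63. DMRTA1, on the same side of CDKN2A as CDKN2B, had no fragment in any MG63 library, and CDKN2B-AS1 and ELAVL2 were at 0 in 5 of the 6. In PC3 siControl, DMRTA1 was at 0.873 ± 0.0909 FPKM, CDKN2B-AS1 at 0.671 ± 0.0577 and ELAVL2, an RNA-binding protein gene, at 3.91 ± 0.335 (SD, n = 2). On the other side, MG63 siControl held MTAP, a methionine salvage enzyme gene, at 2.67 ± 0.119 FPKM against 14.4 ± 0.327 in PC3.

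Farther out on the MTAP side the order of the lines turned. KLHL9 was at 73.3 ± 1.48 FPKM in MG63 siControl against 5.12 ± 0.0526 in PC3, FOCAD at 17.5 ± 0.559 against 9.37 ± 0.301, and MLLT3 at 11.3 ± 0.172 against 2.70 ± 0.390 (SD, n = 2). IFNE, an interferon gene, was at 2.35 ± 0.554 against 0.763 ± 0.331. All 8 neighbours passed the threshold between the lines, 4 in each direction, where 82% of all 15684 genes did. DMRTA1, CDKN2B-AS1 and ELAVL2 passed the expression filter only through PC3, so their calls as higher there could hardly have come out otherwise.

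**Figure D2:**
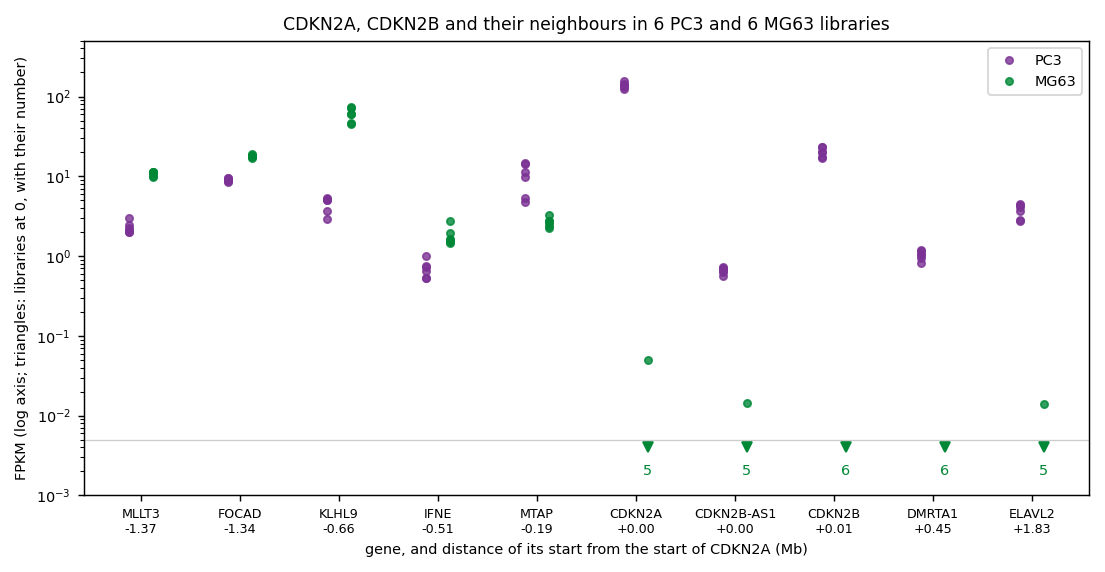
FPKM (log axis) of CDKN2A, CDKN2B and 8 neighbouring genes, ordered by the distance in megabases of each gene's start from that of CDKN2A, with 1 point per library for 6 PC3 and 6 MG63 libraries and triangles for libraries at 0. The MG63 libraries were at or near 0 from CDKN2A to ELAVL2 and above 1 FPKM from MLLT3 to MTAP.

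Within PC3, where CDKN2B rose with both siRNAs, MTAP fell with siLARP4A (log2 -0.44, edgeR adjusted p 7.2e-05) and further with siLARP4B (log2 -1.53, edgeR adjusted p 1.9e-12), to 34.6% of siControl. KLHL9 fell with siLARP4A in PC3 (log2 -0.61, edgeR adjusted p 5e-06) and in MG63 (log2 -0.67, edgeR adjusted p 9.9e-09). With siLARP4B, KLHL9 fell in MG63 (log2 -0.26, edgeR adjusted p 0.0011). In PC3 its siLARP4B difference was 0.02 (95% interval -0.14 to 0.19, edgeR adjusted p 0.85). The siLARP4B effect on KLHL9 differed between the lines (PC3 minus MG63, log2 0.28, edgeR adjusted p 0.037). ELAVL2 also fell with siLARP4A in PC3 (log2 -0.47, edgeR adjusted p 0.0027). MLLT3 fell in PC3 with siLARP4A (-0.41, edgeR adjusted p 0.0016) and siLARP4B (-0.31, 0.01) and in MG63 with siLARP4A (-0.18, 0.045), and DMRTA1 rose with siLARP4B in PC3 (0.43, 0.045). No other neighbour passed the threshold against siControl in either line.

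CDKN2C, which encodes p18 and is the INK4 gene found at a high level in both lines, responded to the siRNAs in opposite orders. The gene spans 50968695 to 50974634 of chromosome 1, plus strand. In PC3 it was at 53.3 and 53.7 FPKM with siControl, 61.7 and 63.4 with siLARP4A, and 43.7 and 44.2 with siLARP4B. In MG63 the siControl pair was at 58.2 and 57.2, the siLARP4A pair at 54.7 and 53.2, and the siLARP4B pair at 78.7 and 78.4. The groups did not overlap in either line: siLARP4A was highest and siLARP4B lowest in PC3, and siLARP4B highest and siLARP4A lowest in MG63.

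CDKN2C rose with siLARP4A in PC3 (1.18-fold, log2 0.24, SE 0.048, edgeR adjusted p 0.00038), and its MG63 difference missed the threshold (log2 -0.10, 95% interval -0.20 to 0.00, edgeR adjusted p 0.15). With siLARP4B it fell to 81.9% of siControl in PC3 (log2 -0.29, SE 0.050, edgeR adjusted p 5.7e-05) and rose 1.38-fold in MG63 (log2 0.46, SE 0.048, edgeR adjusted p 1.3e-07). The effects differed between the lines for siLARP4A (PC3 minus MG63, log2 0.34, SE 0.069, edgeR adjusted p 0.0021) and for siLARP4B (log2 -0.75, SE 0.069, edgeR adjusted p 5.6e-08). Every alternative kept both calls and their directions.

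CDKN2D (chromosome 19, 10566460 to 10568979, minus strand), which encodes p19, the remaining INK4 protein, was lower in PC3. It was at 6.60 and 6.63 FPKM there with siControl, 6.04 and 6.14 with siLARP4A, and 4.61 and 5.01 with siLARP4B, 3 groups that did not overlap. In MG63 the siControl pair was at 11.3 and 11.2, the siLARP4A pair at 10.4 and 11.4, and the siLARP4B pair at 10.8 and 8.78. The MG63 siLARP4A values overlapped those of both other groups. CDKN2D fell with siLARP4B in PC3 to 72.4% of siControl (log2 -0.47, SE 0.13, edgeR adjusted p 0.0056), a call lost without PC3 siLARP4B replicate 1 (-0.41, edgeR adjusted p 0.0633). The MG63 siLARP4B difference was -0.18 (edgeR adjusted p 0.2), and -0.34 without MG63 siLARP4B replicate 1 (edgeR adjusted p 0.0496). The siLARP4A differences were -0.10 in PC3 and -0.04 in MG63, both short of the threshold, and the difference between lines in the siLARP4B effect (log2 -0.29, edgeR adjusted p 0.23) passed it without MG63 siLARP4B replicate 2 (-0.48, 0.0475).

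Counted over the family, siLARP4A against siControl changed 6 of the 9 tested genes in PC3, 5 higher and 1 lower. Of all genes 36.4% passed the threshold there, 19.5% higher and 16.9% lower. In MG63 it changed 1 of 7, CDKN1A, which was higher, where 26.8% of all genes passed, 13.3% higher and 13.5% lower. With siLARP4B the count was 5 of 9 in PC3, 3 higher and 2 lower, against 45.7% of all genes (24.8% higher and 20.9% lower). In MG63 it was 4 of 7, 3 higher and 1 lower, against 34.9% (18% higher and 16.9% lower). CDKN2A and CDKN2B were too low in MG63 to be counted. With DESeq2 the siLARP4A count in PC3 was 5. Some calls in these counts were lost without single libraries, as given above. They were CDKN1C and CDKN2A for siLARP4A in PC3, CDKN2D for siLARP4B in PC3, and CDKN1A for siLARP4B in MG63. A count near the background is no result about these genes. The comparisons of both siRNAs within a line share the same 2 siControl libraries.

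**Figure D3:**
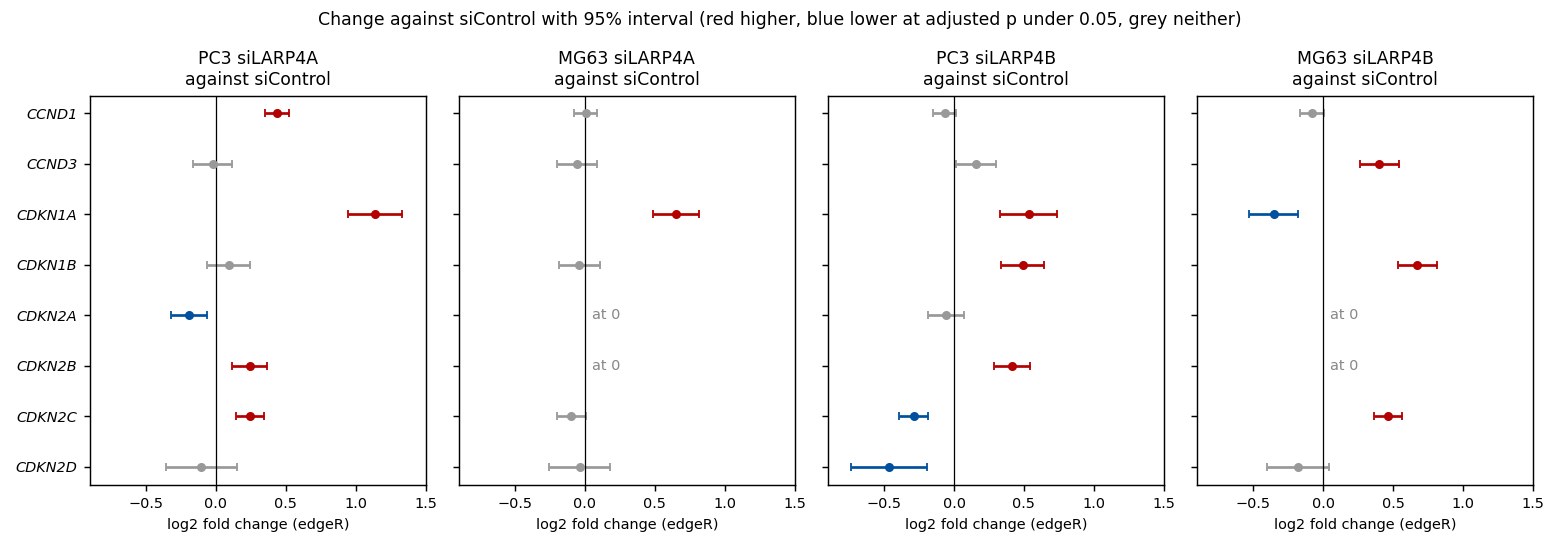
The log2 fold change against siControl (edgeR, x axis) with its 95% interval for 8 of the genes, by siRNA and line, red where higher and blue where lower at an adjusted p under 0.05; CCND2 was not tested and CDKN1C is left out for its low counts. CDKN1A stands to the right with siLARP4A in both lines, CDKN1B with siLARP4B in both lines and CCND1 with siLARP4A in PC3, and CDKN2C changes side between the lines with siLARP4B.

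Set directly against each other in PC3, siLARP4A and siLARP4B differed in 8 of 9 genes, 5 higher and 3 lower with siLARP4A, where 54.1% of all genes did (26.3% higher and 27.8% lower). CCND1 (log2 0.50, SE 0.040, edgeR adjusted p 5e-10), CDKN2C (0.53, SE 0.049, 5.7e-09) and CDKN1A (0.60, SE 0.087, 4.3e-06) were higher with siLARP4A, and CDKN1B was lower (-0.40, SE 0.071, 5.8e-05). The other 4 calls, of CCND3, CDKN1C, CDKN2B and CDKN2D, depended on the setting. The count fell to 4 with DESeq2 and without PC3 siLARP4A replicate 1, and to 5 without PC3 siLARP4B replicate 1. Without the last of these, CCND3 moved from -0.18 (edgeR adjusted p 0.028) to -0.10 (edgeR adjusted p 0.347) and CDKN2D from 0.36 (0.021) to 0.30 (0.147). CDKN1C moved from 1.63 (edgeR adjusted p 0.0051) to 0.94 without PC3 siLARP4A replicate 1 (edgeR adjusted p 0.221). CDKN2B, at -0.17 (edgeR adjusted p 0.019), missed the threshold without PC3 siLARP4A replicate 1 (0.0577) or either PC3 siLARP4B library (0.0837 and 0.0994). CDKN2A missed it at -0.14 (edgeR adjusted p 0.065; limma gave an adjusted p of 0.0393).

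In MG63 the 2 siRNAs differed in 5 of 7 genes, 2 higher and 3 lower with siLARP4A, where 43.8% of all genes did (21.6% higher and 22.2% lower). CDKN1A was 2.01-fold higher with siLARP4A (log2 1.00, SE 0.081, edgeR adjusted p 1.8e-09), while CDKN1B was at 60.9% (log2 -0.72, SE 0.068, 1.9e-08), CDKN2C at 67.8% (log2 -0.56, SE 0.048, 4.2e-09) and CCND3 at 72.8% (log2 -0.46, SE 0.068, 9e-06) of their level with siLARP4B. The fifth was CDKN1C, with 17 fragments against 1 in all, a ratio of 18.1 (counting interval 2.84 to 758), or 4.70 (1.74 to 15.9) with the second copy added. CCND1 missed the threshold (log2 0.08, edgeR adjusted p 0.098) and passed it with limma (0.10, adjusted p 0.0237).

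The effect of siLARP4A differed between the lines for 3 of 7 genes, CCND1, CDKN1A and CDKN2C, each higher in PC3, where 11.2% of all genes passed (5.74% higher and 5.46% lower). The effect of siLARP4B differed for 2 of 7, CDKN1A and CDKN2C, where 26.8% passed (12.4% higher and 14.4% lower); CDKN1A was higher and CDKN2C lower in PC3 by this measure.

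With siControl alone, all 9 tested genes differed between PC3 and MG63, 4 higher and 5 lower in PC3, where 82% of all genes did (41.3% higher and 40.7% lower). CDKN2A and CDKN2B passed the expression filter only through PC3, so their calls, counted among those higher, could hardly have come out otherwise. CCND1 was 1.32-fold higher in PC3 (log2 0.41, SE 0.040, edgeR adjusted p 3.8e-09), beside CDKN2A and CDKN2B. Lower in PC3 were CDKN1A, at 35.6% of MG63 (log2 -1.49, SE 0.092, edgeR adjusted p 8.8e-13), CDKN2D at 51.8% (log2 -0.95, SE 0.11, 7.7e-08), CDKN1B at 62.4% (log2 -0.68, SE 0.073, 1.4e-08) and CDKN2C at 81.5% (log2 -0.29, SE 0.049, 9e-06). Even the highest PC3 siLARP4A library for CDKN1A, at 20.4 FPKM, lay below both MG63 siControl libraries.

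CCND3 between the lines was at the limit: its FPKM overlapped, and its difference of -0.20 (edgeR adjusted p 0.013) became -0.01 with limma on log2(FPKM + 1) (adjusted p 0.872), -0.16 with no filter (edgeR adjusted p 0.0734), -0.18 without PC3 siControl replicate 2 (0.0737) and -0.17 without MG63 siControl replicate 2 (0.0803). The limma value rests on FPKM, which lacks the scaling between libraries used by edgeR. That scaling is common to all genes of a library. Differences between the lines therefore read higher for PC3 in FPKM than in edgeR, for CCND3 and for the other genes. CDKN1C had 19 fragments in PC3 siControl and 5 in MG63 siControl. With the second copy added it had 20 and 14, a ratio of 1.44 (counting interval 0.690 to 3.07). Its call was then lost and the count was 8.

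The makeup of each family moved with these changes. CCND1 held 91.0% of the summed FPKM of the D-type cyclins in PC3 siControl, 93.3% with siLARP4A and 89.6% with siLARP4B, and in MG63 86.9%, 87.4% and 82.6% (means of 2 libraries). The sum itself went from 178 ± 2.26 to 232 ± 1.66 FPKM (SD, n = 2) with siLARP4A in PC3 and was 121 to 123 in the 3 MG63 groups. CCND1's share depends on which CCND3 model is taken: with the model of the highest mean FPKM it was 78.9% in MG63 siLARP4B and 83.9% in MG63 siControl.

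Of the summed Cip/Kip transcripts, CDKN1A made up 35.7% in PC3 siControl, 36.6% with siLARP4B and 53.01% with siLARP4A. The MG63 shares were 32.6% for siLARP4B, 49.6% for siControl and 61.3% for siLARP4A. In both lines every library with either siRNA had a higher Cip/Kip sum than both siControl libraries. For siControl, siLARP4A and siLARP4B the sum was 24.6 ± 1.01, 36.2 ± 1.46 and 34.9 ± 1.45 FPKM in PC3 and 43.7 ± 0.629, 55.7 ± 0.485 and 51.4 ± 3.90 in MG63 (SD, n = 2). The INK4 sum was 214 to 225 FPKM in the PC3 groups, and in MG63 it was 69.0 ± 0.796 with siControl, 64.9 ± 0.347 with siLARP4A and 88.4 ± 1.62 with siLARP4B, with CDKN2C at 83.2% to 89.0% of it.

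**Figure D4:**
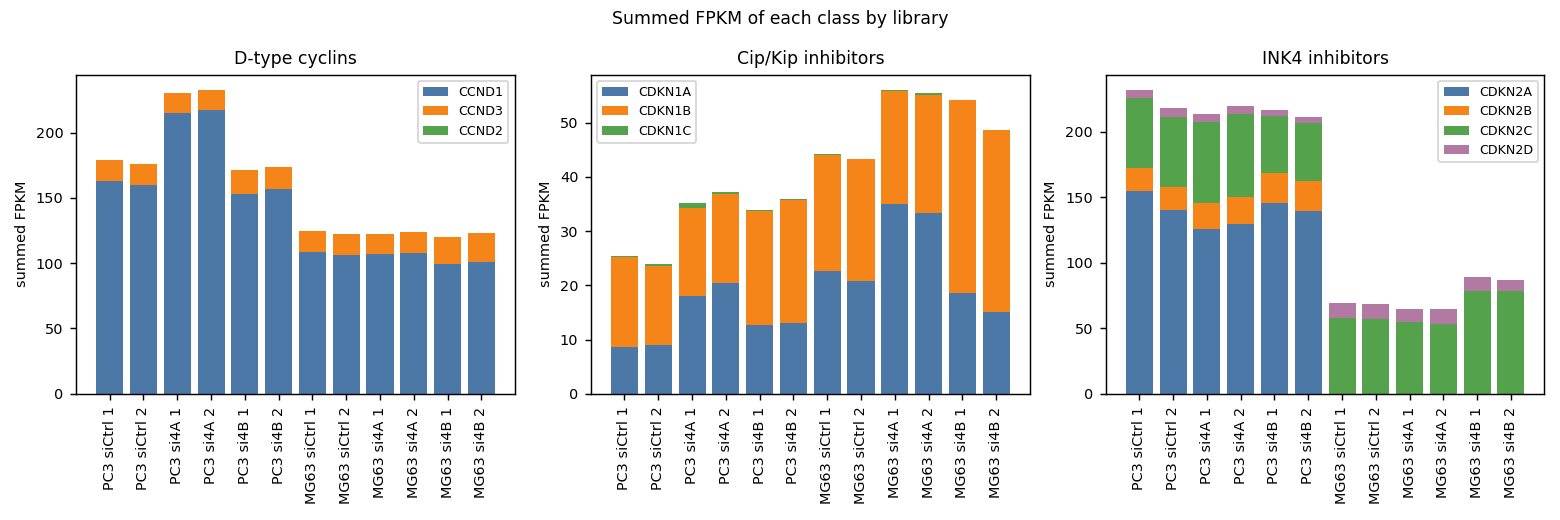
Summed FPKM per library (stacked bars from 0, 1 bar per library) of the D-type cyclins, the Cip/Kip inhibitors and the INK4 inhibitors, coloured by gene, for siControl (siCtrl), siLARP4A (si4A) and siLARP4B (si4B). The CDKN1A segment is largest with siLARP4A in each line, and the MG63 INK4 bars hold CDKN2C and CDKN2D with no visible CDKN2A or CDKN2B.

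Genes whose products work with these proteins, lie downstream of them or turn them over were read from 3 lists of known genes. Of 10 tested cyclin and CDK partners, siLARP4B lowered 9 and raised 0 in PC3 (median log2 -0.92, against 0.04 for all genes), among them CCNE2 (log2 -2.06, edgeR adjusted p 1.9e-10), the S-phase cyclin CCNA2 (-1.10, 6.3e-12), the mitotic kinase CDK1 (-1.27, 3.9e-12) and CDK6 (-1.01, 7.6e-09). Of all genes 20.9% were lower there. In MG63 siLARP4B lowered 4 and raised 1, CCNE1 (log2 0.76, edgeR adjusted p 0.0061), with a median of -0.13 against 0.00, where 34.9% of all genes changed. With siLARP4A, 3 fell and 1 rose in PC3, near the 36.4% of all genes that changed, and 5 fell and 1 rose in MG63, against 26.8%; CCNE2 fell in both (log2 -0.82 and -0.71, edgeR adjusted p 1.2e-05 and 2e-06) and CDK6, a partner of the D-type cyclins, was the gene that rose in both (0.39 and 0.28, 0.00086 and 0.023).

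Of 13 pocket protein and E2F genes, siLARP4B lowered 7 and raised 2 in PC3 (20.9% and 24.8% of all genes), with E2F2 (log2 -1.61, edgeR adjusted p 2e-08), E2F1 (-1.27, 8.5e-11) and the pocket protein RBL1 (-0.93, 1.2e-09) among those that fell. In MG63 it lowered 2 and raised 1, E2F5 (log2 0.71, edgeR adjusted p 3.9e-05), a smaller share than the 34.9% of all genes. siLARP4A raised 5 and lowered 4 in PC3, where 36.4% of all genes changed, and raised 3 and lowered 4 in MG63, where 26.8% did. E2F7, a repressor E2F, rose with siLARP4A in PC3 (log2 0.72, edgeR adjusted p 6.1e-09) and MG63 (0.60, 4.3e-06), and E2F8, its relative, fell in PC3 (-0.60, 0.0068) and MG63 (-1.26, 6.2e-06). List medians were -0.28 with siLARP4B in PC3 and between -0.09 and 0.04 in the other 3 comparisons.

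Of 14 genes for ubiquitin ligase parts that turn over p27, p21 and D-type cyclins, siLARP4B lowered 8 and raised 1 in PC3 (20.9% and 24.8% of all genes) and lowered 5 and raised 1 in MG63 (16.9% and 18%). The gene that rose in each was FBXO31, an F-box protein gene (log2 0.49 in PC3 and 0.48 in MG63, edgeR adjusted p 1.1e-05 and 9.2e-05). DTL, which directs a CUL4 ligase to p21 (log2 -1.17, edgeR adjusted p 1.6e-10), and CKS1B, a cofactor for the turnover of p27 (-0.81, 4.6e-10), were among those that fell in PC3. With siLARP4A, 4 rose and 2 fell in PC3, and 2 rose and 2 fell in MG63, counts close to the 36.4% and 26.8% of all genes that changed. SKP2, the F-box protein for p27, fell with siLARP4A in MG63 (log2 -0.29, edgeR adjusted p 0.0018). CDKN1B transcript in that group was 21.3 ± 0.616 FPKM against 22.0 ± 0.791 with siControl (SD, n = 2). These libraries hold RNA, and p27 protein, on which SKP2 acts, was not measured. List medians were 0.10, -0.22, 0.01 and -0.12 for siLARP4A and siLARP4B in PC3 and then in MG63.

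CDKN1C lies among imprinted genes, and 4 of the 10 listed neighbours could be tested. IGF2 rose with siLARP4A in PC3 (log2 1.19, edgeR adjusted p 0.00038) and MG63 (1.54, 3.5e-05) and fell with siLARP4B in MG63 (-1.34, 0.0049), at levels of 0.102 to 0.773 FPKM in the group means. CD81, the abundant neighbour at 108.8 FPKM in PC3 siControl, was lower with siLARP4A (log2 -0.40, edgeR adjusted p 5.7e-07) and slightly higher with siLARP4B (0.12, 0.032) in that line. KCNQ1OT1, the antisense RNA of the domain, was at 0.123 FPKM or less in every group mean and rose with siLARP4A in MG63 (0.73, edgeR adjusted p 0.033). TSSC4 passed the threshold in none of the 4 comparisons against siControl (log2 -0.10 to 0.07).

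Genes whose pattern over the 12 libraries was most like a member's, after the mean of each line was taken away, were ranked by Pearson's r among genes with a mean of at least 5 FPKM. The libraries are pairs from 6 groups, so r describes group differences shared by 2 genes, and no p is given. Closest to CDKN1A were FHOD1 (r = 0.987), RUSC2 (0.981) and CARD10 (0.979), and to CDKN1B IFIT1 (0.988), CIAO1 (0.981) and YKT6 (0.979). Closest to CDKN2C were SRSF4 (0.983) and EIF4A1 (0.981), followed by SENP3-EIF4A1 (0.980), a readthrough gene that shares exons with the latter. For CCND1 they were PACS1 (0.976), B4GALNT1 (0.973) and MIR100HG (0.970), and for CCND3 SPATA5L1 (0.968), TEX10 (0.966) and HSCB (0.966). Members were compared with each other only for CDKN1A, CDKN1B, CDKN2C, CDKN2D, CCND1 and CCND3. Among these the pair most alike was CDKN1B and CCND3 (r = 0.903, 12 libraries), followed by CDKN1A and CCND1 (0.676). The most unlike was CDKN1B and CDKN2D (-0.682).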

How the data were processed

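The authors deposited 1 table per library of 86394 transcript models, and the rule for the 10 genes, the lists and the tests were chosen with earlier results of these data known. The columns per the file headers are a fragment count, FPM and FPKM; the deposited FPM signal is the count over a total for each library, and the deposited FPKM is that per kilobase. FastQC, HISAT2, featureCounts, edgeR and the hg38 build are named in the submitters' processing notes, with no versions or parameters; the handling of strand and of fragments in shared exons is not given in the sources used here. Each symbol on the primary chromosomes was represented by its model with the largest fragment sum, and 1813 symbols at more than 1 locus were left out, which kept 26465.

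Fragment counts were tested in R 4.3.3 with the two-sided quasi-likelihood test of edgeR 4.0.16, TMM scaling, edgeR's expression filter, the 6 groups as coefficients in a joint fit, and Benjamini-Hochberg adjustment over 15684 genes at 0.05. The coefficient of variation was 4.22% and the prior degrees of freedom 15.4, so each gene's spread is borrowed largely from other genes. The script was tested on simulated data. Alternatives were DESeq2 1.42.0, its size factors, limma 3.58.1 on log2(FPKM + 1), no filter, another model choice, a fit of the line alone, the deduplicated table of PC3 siControl replicate 2, a replicate block and leaving out each library; a library left alone in its group was assumed to vary like the other groups. Adding the alternate contig copy of CDKN1C and crossing the block were chosen after seeing the data. Intervals on counts are exact at 95% and, like the floor of 3 fragments, cover counting error only. By rule, the 10 genes, LARP4 and LARP4B are always named, up to 4 genes of each list with the largest change past the threshold, all neighbours of CDKN2A and CDKN1C, and the 3 genes most like each member. A further list of genes and 1 marker are not reported here.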

Additional observations from a re-analysis of the deposited data

Results flagged for a closer look

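The effects of 5 gene and siRNA pairs differed between the cell lines by the test of the difference itself, each given as the siRNA effect in PC3 minus that in MG63 on the log2 scale. For siLARP4A these were CCND1 (0.4332), CDKN1A (0.4862) and CDKN2C (0.3397), and for siLARP4B CDKN1A (0.887) and CDKN2C (-0.7515). The siLARP4A difference of CDKN1A lost its call with limma and without some single libraries, as given in the Results. CDKN1A and CDKN2C moved in opposite directions in the lines with siLARP4B, each past the threshold in both lines in edgeR. The fall of CDKN1A in MG63 (log2 -0.35) lost its call without MG63 siControl replicate 1 (-0.28, edgeR adjusted p 0.061) or MG63 siLARP4B replicate 2 (-0.21, 0.0843). LARP4 was also higher with siLARP4B in MG63 and not in PC3, and its part in these differences was not tested.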

How the results depend on the processing

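Of 63 fold changes of these genes with a test, 39 passed the threshold, and 29 of those kept direction and call in every alternative that could be run. Over all 768 alternative values, 699 kept direction and side of the threshold, 34 lost a call, 15 gained one and 20 changed sign, with 0 sign changes among results past the threshold; DESeq2 gave no adjusted p for 7. The reversals were of differences near 0. CCND1's difference between lines in the siLARP4B effect was 0.01, and became -0.0114 with DESeq2 and with its size factors, -0.0524 with no filter and -0.0127 with the deduplicated table (-0.0588 to 0.0316 without single libraries). CCND3's difference in the siLARP4A effect was 0.03, and became -0.0144 with no filter and -0.0197 with the deduplicated table (-0.0291 to 0.0505 without single libraries). Without single libraries, values ran from -0.0119 to 0.1953 for CDKN1B and siLARP4A in PC3, -0.0641 to 0.0012 for the same in MG63, -0.1411 to 0.0217 for CDKN2A and siLARP4B in PC3, -0.0952 to 0.0351 for CDKN2D and -0.0084 to 0.0345 for CCND1 with siLARP4A in MG63; the cause was not tested. The number of genes that differed between siLARP4A and siLARP4B in PC3 was 8, 4 with DESeq2, and 4 to 6 without single libraries. CCND1's share of D-type cyclin FPKM, with the model of highest mean FPKM, was 88.74%, 91.586% and 87.111% in PC3 with siControl, siLARP4A and siLARP4B and 83.894%, 84.477% and 78.863% in MG63; the PC3 siControl share was 90.788% with the deduplicated table.

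The sample labels give same-numbered replicates only a number in common. In PC3 the deviations of same-numbered libraries correlated at -0.199 for siControl with siLARP4A and 0.111 for siControl with siLARP4B. For siLARP4A with siLARP4B the value was -0.168, and in MG63 the values were 0.039 to 0.08. Whether libraries were handled in pairs, under the same or crossed numbers, was not tested. The replicate block kept all 63 values on their side of the threshold, and the counts of called genes against siControl stayed 6 and 5 in PC3 and 1 and 4 in MG63. With the numbers of the PC3 siLARP4A libraries crossed, the block gave 6 calls against siControl, 9 against siLARP4B and 3 for the difference between lines. Depth limits CDKN1C, and no fold between siRNA groups is given for CCND2 or, in MG63, for CDKN2A and CDKN2B.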
